A study of Mus musculus with 8 samples.

Results

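Genes of the YAP and TEAD pathway were read in small intestinal adenomas and in wild-type small intestine of mice. The 10 genes, chosen by name, were the coactivators Yap1 and Wwtr1 (which encodes TAZ), the DNA-binding factors Tead1 and Tead4, the kinase gene Lats2, the pathway-linked scaffold genes Amotl2 and Ajuba, and the target genes Ccn1, Ccn2 and Ankrd1. The choice was made with earlier results of these data known. They were 10 of the 39179 genes counted, and all 10 were tested. The 5 adenoma libraries came from VilCreER+ APCfl/+ mice, which carry 1 floxed allele of Apc, and per the series text these were aged animals in which adenomas had developed. The 3 wild-type (WT) libraries were whole small intestine of VilCreER+ mice without the floxed allele. In both groups the VilCreER transgene, a tamoxifen-activated Cre recombinase under the villin promoter of intestinal epithelium, was present, tamoxifen had been given, and the strain was inbred C57BL6/J. Adenomas are benign epithelial tumours, and both tissues were taken whole, so epithelium, stroma and blood cells are mixed in each library. The labels do not say whether each library is a separate mouse, so p-values measure the spread between these libraries.

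In the Hippo pathway the kinases encoded by Stk3 and Stk4 activate the LATS kinases, which phosphorylate YAP and TAZ, so that these are held in the cytoplasm or degraded. Unphosphorylated YAP and TAZ enter the nucleus, bind TEAD factors on DNA and switch on genes such as Ccn1, Ccn2 and Ankrd1. Control of YAP acts mainly on the protein, so RNA levels of Yap1 do not measure its activity. In the intestine YAP is known for its part in regrowth after injury, and YAP and TAZ also bind the beta-catenin destruction complex of which the Apc protein is a scaffold.

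Total counts ran from 18040301 to 28343915 per library. Values are given in CPM (counts per 1000000, scaled by library size with TMM) as mean ± SD, with n = 5 for adenoma and n = 3 for WT. Log2 fold changes are adenoma over WT ± SE, tested with edgeR's quasi-likelihood test and adjusted by Benjamini-Hochberg over all 18345 genes tested, and a gene is called at an adjusted p below 0.05. The libraries differ in more than their group. Xist measured 432 to 761 CPM in adenomas 2, 3, 4 and 5 and 1.17 CPM in adenoma 1, and WT libraries had 1.56 to 1.75 CPM, so that sex and group cannot be told apart except through adenoma 1. Hoxb13, a hindgut homeobox gene, reached 246 CPM in adenoma 2 and no more than 0.894 CPM in the other libraries. The pancreatic lipase gene Pnlip was at 63.5 CPM in adenoma 5 and 190.04 CPM in WT 1, and at most 0.798 CPM elsewhere. Apc itself was at 146 ± 11.4 CPM in adenoma and 199 ± 10.8 CPM in WT, counted over the whole gene (log2 fold change -0.45 ± 0.09, adjusted p = 0.00374). Epcam, the defining epithelial marker, was at 1031 to 1843 CPM in adenoma and 930.4 to 1129 CPM in WT.

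In adenomas 7 of the 10 genes were called higher and 0 lower, and 3 were not called. Over all genes tested, 58.1% were called, 30.3% higher and 27.8% lower, so a call in itself sets no gene apart here. The groups did not overlap for 7 of the 10 genes, against 56.9% of all genes tested. The median log2 fold change of the 10 genes was 1.77, against 0.04 over all genes tested. Since the 10 genes and the lists below were chosen with earlier results of these data known, comparisons with all genes are descriptions only. Ankrd1 had no count in WT and entered the test through the adenomas alone, so it had to differ, and among the other 9 genes 6 were called higher. Over those 9 genes the median was 1.33, a value added after the data were seen. The direction of the whole comparison rests on scaling by the bulk of genes. When the libraries were instead brought to the same total over 8 pan-epithelial genes, 5 of which were themselves called higher, the median of all genes moved to -0.50, 15.4% of calls were higher in place of 52.2%, and of the 10 genes 6 were called higher and 1 lower.

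**Figure D1:**
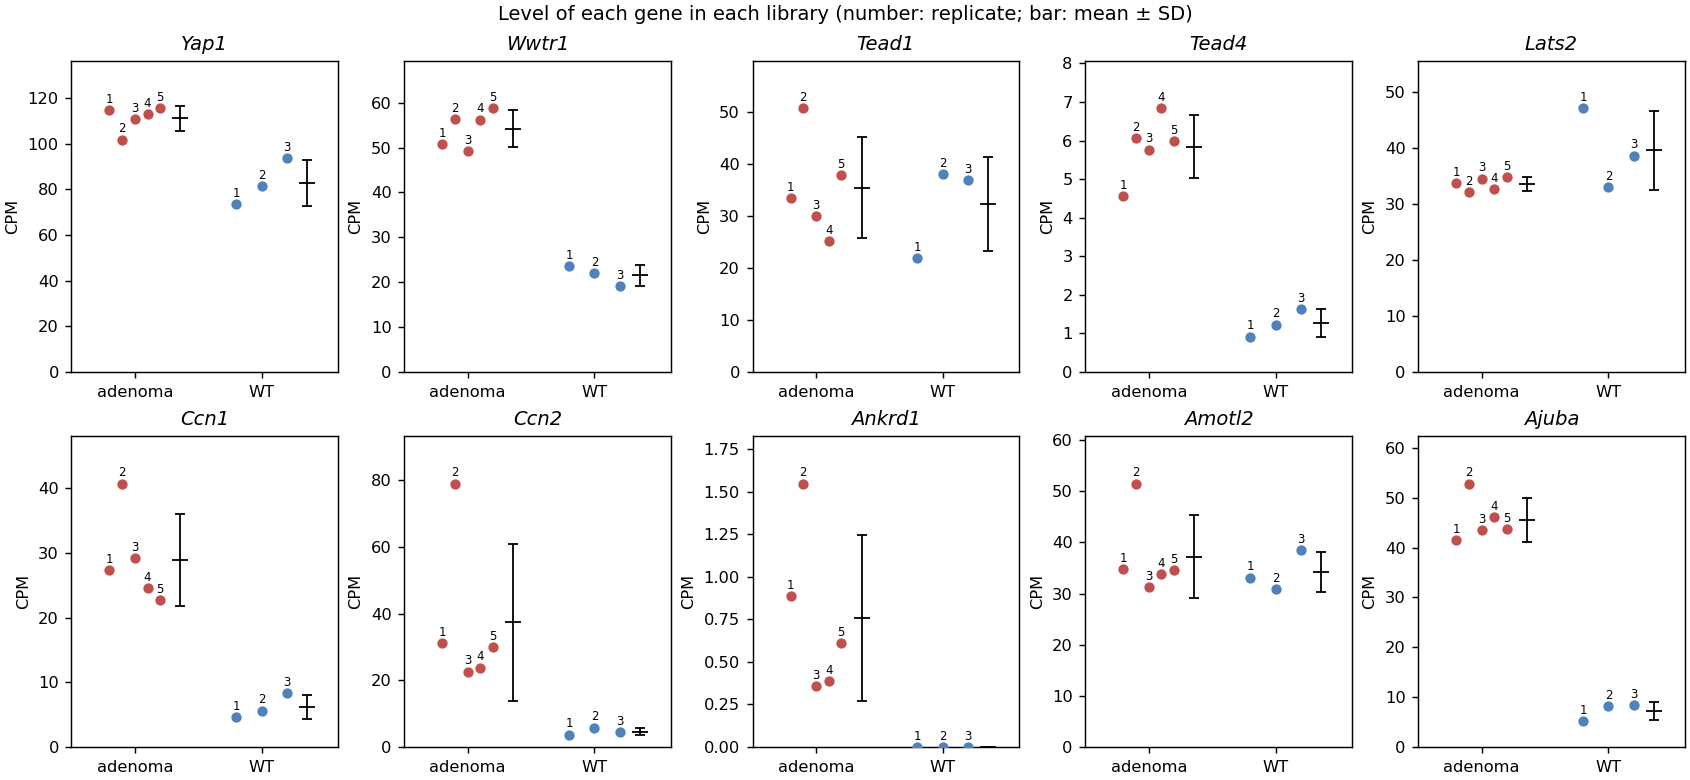
CPM of each of the 10 genes (y axis, linear from 0) in the 5 adenoma libraries (red) and the 3 WT libraries (blue), with the replicate number above each point and mean ± SD beside it. The groups are apart for Yap1, Wwtr1, Tead4, Ccn1, Ccn2, Ankrd1 and Ajuba, and they overlap for Tead1, Lats2 and Amotl2. Adenoma 2 is the highest adenoma for 6 of the genes.

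The coactivators were both called higher in adenoma, by different amounts. Yap1 (ENSMUSG00000053110, GRCm38 chromosome 9, 7931999 to 8004596, minus strand) stood at 115, 102, 111, 113 and 116 CPM in adenomas 1 to 5, against 73.6, 81.4 and 93.8 CPM in WT 1 to 3. Every adenoma lay above every WT library, by a narrow margin, and adenoma 2 was the lowest adenoma. The log2 fold change was 0.42 ± 0.10 (adjusted p = 0.00564), with means of 111 ± 5.53 CPM in adenoma and 82.9 ± 10.2 CPM in WT. With pan-epithelial scaling the direction of Yap1 turned to -0.14 (adjusted p = 0.616), which is still 0.37 above the median of all genes under that scaling. The call was also lost without WT 1 and adenoma 5 together (adjusted p = 0.0510) and after adding the sex pattern to the fit (0.0592), at log2 fold changes of 0.33 and 0.47.

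Wwtr1 (ENSMUSG00000027803, chromosome 3, 57455649 to 57575910, minus strand) encodes TAZ, the paralogue of YAP, which binds the same TEAD factors. It stood at 50.7, 56.4, 49.2, 56.2 and 58.7 CPM in adenomas 1 to 5, against 23.6, 22.1 and 19.04 CPM in WT 1 to 3. The groups were far apart compared with the spread within each. The log2 fold change was 1.33 ± 0.11 (adjusted p = 3.64e-05), and it was 0.80 (adjusted p = 0.0279) with pan-epithelial scaling.

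A ratio within a library does not depend on scaling. Per kilobase of exon, the level of Wwtr1 over that of Yap1 was 0.855, 1.07, 0.860, 0.965 and 0.985 in adenomas 1 to 5, against 0.622, 0.525 and 0.393 in WT 1 to 3. TAZ transcripts were thus about as abundant per length as YAP transcripts in adenoma, and less abundant in every WT library. The log2 ratio averaged -0.08 ± 0.14 in adenoma and -0.99 ± 0.33 in WT, a difference of 0.90 (exact two-sided permutation test over libraries, p = 0.0179, the smallest that 56 splits of 5 and 3 can give). With any 1 library left out the difference ran from 0.72 to 1.05, with exact p from 0.0286 to 0.0476.

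TEAD factors bring YAP and TAZ to DNA, and of the 4 paralogues Tead2 and Tead4 were called higher and Tead1 was not called. Tead3 was called lower, near the threshold, and the call was lost on leaving out most single libraries. Tead1 (ENSMUSG00000055320, chromosome 7, 112679318 to 112906807, plus strand) stood at 33.4, 50.8, 29.98, 25.2 and 37.9 CPM in adenomas 1 to 5, against 21.9, 38.1 and 37.0 CPM in WT 1 to 3. The groups overlapped widely, with adenoma 2 the highest library and WT 1 the lowest. Tead1 was not called, with a log2 fold change of 0.13 ± 0.25 and a 95% interval of -0.45 to 0.71 (adjusted p = 0.673).

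Tead4 (ENSMUSG00000030353, chromosome 6, 128224288 to 128300823, minus strand) is known for its role in the trophoblast lineage of the early mouse embryo. It stood at 4.57, 6.06, 5.76, 6.83 and 5.99 CPM in adenomas 1 to 5, against 0.917, 1.23 and 1.64 CPM in WT 1 to 3. The lowest adenoma was above the highest WT library by more than the range within either group. These values rest on 98 to 177 counts per library in adenoma and 18 to 30 in WT. The log2 fold change was 2.21 ± 0.24 (adjusted p = 1.31e-04).

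The other TEAD genes were read to place these values. Tead2 rose to 36.03, 51.5, 29.7, 33.8 and 38.02 CPM in adenomas 1 to 5, against 5.70, 5.52 and 3.66 CPM in WT 1 to 3, a log2 fold change of 2.93 ± 0.23 (adjusted p = 3.64e-05). Tead3 was at 17.5 ± 3.03 CPM in adenoma and 23.4 ± 1.44 CPM in WT, with overlapping groups and a log2 fold change of -0.41 ± 0.14 (adjusted p = 0.0342). The Tead3 call was lost when WT 1, WT 2, WT 3, adenoma 1, adenoma 4 or adenoma 5 was left out, at adjusted p from 0.0528 to 0.104. In those fits the log2 fold change stayed between -0.46 and -0.37.

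Set side by side per kilobase, the family had a different makeup in adenoma. Tead2 made up 55.8%, 55.4%, 47.9%, 53.995% and 53.6% of the summed TEAD level in adenomas 1 to 5, against 18.9%, 14.6% and 10.1% in WT 1 to 3. Tead3, the leading TEAD per kilobase in WT at 48.2 ± 2.91%, took 17.9 ± 2.70% in adenoma. This order rests on dividing by merged exon length, which is 13570 bases for Tead1 and 6714 for Tead3. In CPM the mean of Tead1 in WT (32.4) was above that of Tead3 (23.4). In adenoma the CPM means of Tead1 (35.4) and Tead2 (37.8) were close. Tead1 took 17.5 ± 2.04% in adenoma and 32.5 ± 5.86% in WT, although its own level was not called different.

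Tead4 took 11.2 ± 2.34% in adenoma and 4.80 ± 1.08% in WT. For each of the 4 shares the groups did not overlap, and the exact two-sided permutation test over libraries gave p = 0.0179, or 0.0179 after Benjamini-Hochberg adjustment over the 4 shares, which sum to 100% and so are not independent. Without adenoma 1 the Tead4 share no longer passed (adjusted p = 0.0571, exact test), although the groups still did not overlap. The difference was then 6.91 percentage points, against 6.45 with all libraries. The summed TEAD level was 13.5, 19.4, 12.95, 13.1 and 14.8 CPM per kilobase in adenomas 1 to 5, against 6.29, 7.91 and 7.54 in WT 1 to 3, so the lowest adenoma was above the highest WT library.

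**Figure D2:**
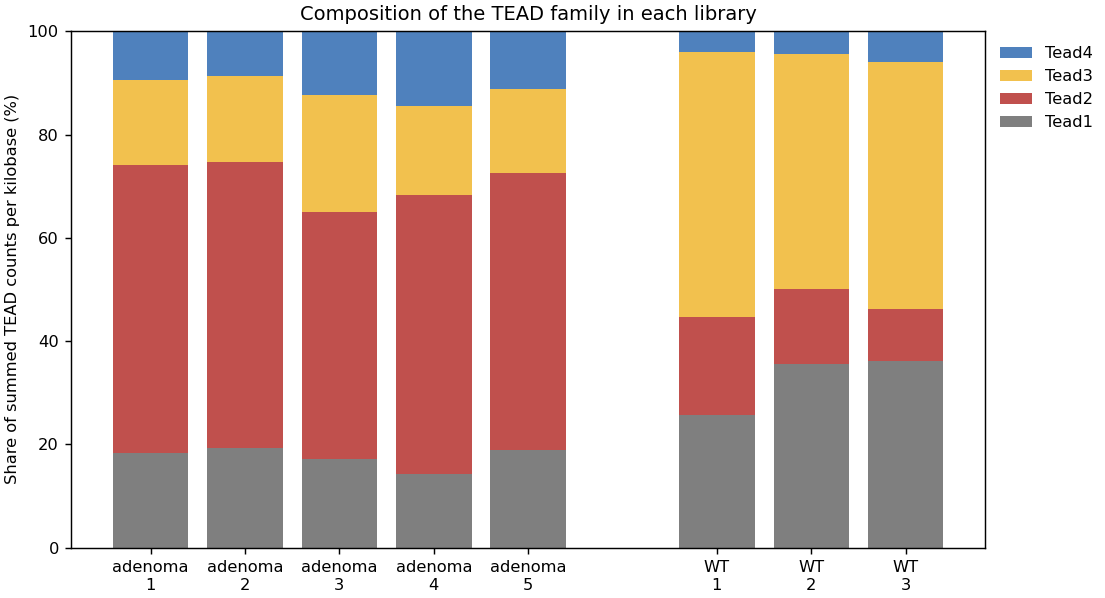
Share of Tead1, Tead2, Tead3 and Tead4 in the summed TEAD counts per kilobase of exon (y axis, percent) in each of the 5 adenoma and 3 WT libraries (one bar each). Tead2 holds 47.9% to 55.8% of each adenoma bar and 10.1% to 18.9% of each WT bar, and Tead3 is the largest part of each WT bar.

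Among the cofactors that compete with YAP and TAZ for TEAD, Vgll4, a repressor of TEAD activity, was at 121 ± 10.5 CPM in adenoma and 41.4 ± 0.755 CPM in WT, a log2 fold change of 1.55 ± 0.09 (adjusted p = 1.23e-05). Vgll3 was at 2.46 ± 1.06 CPM in adenoma and 0.898 ± 0.122 CPM in WT (log2 fold change 1.45 ± 0.36, adjusted p = 0.00825), and its call was lost with pan-epithelial scaling (adjusted p = 0.155) and after adding the sex pattern to the fit (0.0895). Vgll2 had no count in any library, and Vgll1 had at most 3 counts in a library. The list of TEAD factors and cofactors held 8 genes beyond the 10, of which 4 had enough counts to be tested. Of these the cofactor genes Vgll3 and Vgll4 and the TEAD gene Tead2 were called higher, and Tead3 was called lower. Over all genes tested 30.3% were called higher and 27.8% lower.

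The kinase gene Lats2 (ENSMUSG00000021959, chromosome 14, 57689662 to 57758388, minus strand) is both an inhibitor of YAP and one of its targets. It stood at 33.7, 32.1, 34.5, 32.6 and 34.8 CPM in adenomas 1 to 5, against 47.0, 32.9 and 38.6 CPM in WT 1 to 3. The adenomas were within 3.54% (coefficient of variation) of each other, the tightest of the 10 genes, and they overlapped the lowest WT library. Lats2 was not called, at a log2 fold change of -0.24 ± 0.11 and a 95% interval of -0.50 to 0.02 (adjusted p = 0.104). It was called lower without WT 2 (log2 fold change -0.34, adjusted p = 0.0296), with upper-quartile scaling (-0.32, 0.0374), with a filter of 5 CPM (-0.34, 0.0284) and with pan-epithelial scaling (-0.78, 0.0163). In the annotation Lats2 shares 42.4% of its exonic bases with Gm49361, a gene model on the same strand that was not analysed here.

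Its paralogue Lats1 was at 85.05 ± 5.11 CPM in adenoma and 120 ± 11.2 CPM in WT, a log2 fold change of -0.50 ± 0.09 (adjusted p = 0.00155), with every adenoma below every WT library. Per kilobase, Lats2 over Lats1 was 0.398 to 0.423 in adenoma and 0.285 to 0.451 in WT. That ratio did not differ beyond the spread of the WT libraries (difference of 0.28 on the log2 scale, exact two-sided permutation p = 0.107). Without WT 1 the difference was 0.48 (exact p = 0.0476).

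Of the other 16 genes of the Hippo kinase list 6 were called higher, 6 lower and 4 were not called, against 30.3% higher and 27.8% lower over all genes tested, and their median log2 fold change was -0.07 against 0.04 over all genes tested. With pan-epithelial scaling 0 were called higher and 7 lower, and with the sex pattern in the fit 4 were higher and 3 lower. Stk38l, which encodes a kinase related to LATS, was at 38.9 ± 7.33 CPM in adenoma and 14.8 ± 0.880 CPM in WT (log2 fold change 1.40 ± 0.16, adjusted p = 1.62e-04). Stk3, one of the kinases that activate LATS, was at 31.7 ± 1.94 CPM in adenoma and 20.6 ± 1.16 CPM in WT (0.62 ± 0.09, adjusted p = 5.68e-04). Map4k4, which can act beside it, was at 119 ± 2.50 CPM in adenoma and 81.3 ± 5.56 CPM in WT (0.55 ± 0.08, adjusted p = 4.65e-04). Mob1b, a coactivator of LATS, was at 73.5 ± 6.57 CPM in adenoma and 116 ± 11.8 CPM in WT (-0.65 ± 0.10, adjusted p = 8.19e-04). The calls of Stk38l, Stk3 and Map4k4 were lost with pan-epithelial scaling, at log2 fold changes of 0.90, 0.07 and 0.01 (adjusted p = 0.0504, 0.821 and 0.985).

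The scaffold genes of the set diverged. Ajuba (ENSMUSG00000022178, chromosome 14, 54567472 to 54577558, minus strand) encodes a LIM-domain protein that binds LATS at junctions and restrains it. It stood at 41.5, 52.8, 43.5, 46.05 and 43.7 CPM in adenomas 1 to 5, against 5.14, 8.19 and 8.35 CPM in WT 1 to 3. All 5 adenomas lay in a narrow band far above WT. The log2 fold change was 2.66 ± 0.18 (adjusted p = 2.04e-05), the smallest adjusted p of the 10 genes, and it was 2.13 with pan-epithelial scaling.

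Amotl2 (ENSMUSG00000032531, chromosome 9, 102716672 to 102733418, plus strand) encodes an angiomotin-like protein that binds YAP, and it is itself a YAP target. It stood at 34.7, 51.5, 31.3, 33.9 and 34.6 CPM in adenomas 1 to 5, against 33.1, 30.9 and 38.5 CPM in WT 1 to 3. Adenoma 2 alone lay outside the WT range. Amotl2 was not called, at a log2 fold change of 0.12 ± 0.17 and a 95% interval of -0.26 to 0.51 (adjusted p = 0.554), and without adenoma 2 it was -0.03.

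Among related scaffolds, Amotl1 was at 123 ± 14.9 CPM in adenoma and 35.3 ± 0.407 CPM in WT (log2 fold change 1.79 ± 0.12, adjusted p = 1.74e-05). Wtip, an Ajuba relative, was at 22.8 ± 2.95 CPM in adenoma and 6.54 ± 1.56 CPM in WT (1.80 ± 0.18, adjusted p = 9.18e-05). Fat1, an atypical cadherin, was at 512 ± 70.7 CPM in adenoma and 998 ± 30.3 CPM in WT (-0.96 ± 0.14, adjusted p = 5.44e-04). Patj, a polarity scaffold, was at 136 ± 11.1 CPM in adenoma and 205 ± 12.3 CPM in WT (-0.60 ± 0.10, adjusted p = 0.00101). Of the 16 junction and polarity genes beyond Ajuba and Amotl2, 4 were called higher (25.0%), 4 lower (25.0%) and 8 were not called. Over all genes tested 30.3% were higher and 27.8% lower, so this list was called no more often than genes at large. The median log2 fold change of the 16 genes was 0.06. With pan-epithelial scaling 2 were called higher and 7 lower, with a filter of 5 CPM 7 were lower, and with the sex pattern in the fit 2 were higher.

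The target genes Ccn1 and Ccn2 were called higher in adenoma, and so was Ankrd1, which entered the test through the adenomas alone. Ccn1 (ENSMUSG00000028195, chromosome 3, 145646976 to 145649981, minus strand) and Ccn2 (ENSMUSG00000019997, chromosome 10, 24595442 to 24598683, plus strand) encode secreted matricellular proteins and are the targets most used to read YAP activity. Ankrd1 (ENSMUSG00000024803, chromosome 19, 36111961 to 36120099, minus strand) encodes an ankyrin-repeat protein of heart and skeletal muscle that YAP also induces.

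The promoters of 7 of the 10 genes were found in the RefSeq table on GRCm38.p6, as windows of 300 bases from 250 before to 50 after a start site. The core motif bound by TEAD factors, GGAATG or CATTCC on the other strand, was searched for in each. Of 32851 such windows in the mouse genome 14.7% held it, and each of the 7 genes had a window that did. The windows of Ccn1, Ankrd1 and Ajuba, which were called higher, and of Amotl2, which was not, are shown with the motif in capitals, 5′ to 3′ on the gene's strand (Ccn1 chr3:145649936-145650235 minus, Ankrd1 chr19:36119795-36120094 minus, Ajuba chr14:54577612-54577911 minus, Amotl2 chr9:102717554-102717853 plus).
Ccn1: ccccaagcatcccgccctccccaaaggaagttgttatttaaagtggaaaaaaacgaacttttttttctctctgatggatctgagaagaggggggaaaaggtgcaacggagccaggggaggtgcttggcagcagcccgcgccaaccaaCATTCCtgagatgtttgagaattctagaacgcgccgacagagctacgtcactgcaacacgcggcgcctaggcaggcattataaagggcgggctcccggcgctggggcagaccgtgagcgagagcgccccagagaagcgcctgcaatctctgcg
Ankrd1: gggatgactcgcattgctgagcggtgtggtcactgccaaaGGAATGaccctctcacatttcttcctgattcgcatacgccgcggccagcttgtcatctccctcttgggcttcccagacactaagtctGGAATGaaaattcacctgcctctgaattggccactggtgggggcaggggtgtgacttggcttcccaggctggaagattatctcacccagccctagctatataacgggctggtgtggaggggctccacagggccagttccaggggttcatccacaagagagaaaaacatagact
Ajuba: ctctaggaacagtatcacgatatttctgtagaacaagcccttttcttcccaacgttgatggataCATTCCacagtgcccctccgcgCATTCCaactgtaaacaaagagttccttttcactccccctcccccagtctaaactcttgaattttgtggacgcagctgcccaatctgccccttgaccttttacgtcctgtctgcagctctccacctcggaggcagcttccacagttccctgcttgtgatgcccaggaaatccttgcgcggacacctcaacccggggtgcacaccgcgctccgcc
Amotl2: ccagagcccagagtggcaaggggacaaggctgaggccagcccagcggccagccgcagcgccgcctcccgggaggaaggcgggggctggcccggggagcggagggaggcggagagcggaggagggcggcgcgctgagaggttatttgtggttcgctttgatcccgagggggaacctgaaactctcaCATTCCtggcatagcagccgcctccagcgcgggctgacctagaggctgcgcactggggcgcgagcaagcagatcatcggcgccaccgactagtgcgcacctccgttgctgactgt
Counting the start site as 0, the first base of the motif lay at -103 in Ccn1, at -210 and -123 in Ankrd1, at -186 and -164 in Ajuba and at -65 in Amotl2. It lay at -141 in Yap1 and at 4 in the upstream window of Lats2, whose other window held none, and at -136 or -170 in Wwtr1 by its start site. Genes that were called and genes that were not therefore both hold the letters, and a match of 6 letters is a description of the sequence and not of binding.

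Ccn1 stood at 27.4, 40.7, 29.2, 24.6 and 22.7 CPM in adenomas 1 to 5, against 4.58, 5.63 and 8.29 CPM in WT 1 to 3. The lowest adenoma was well above the highest WT library. The log2 fold change was 2.23 ± 0.26 (adjusted p = 1.89e-04), and it was 1.74 with pan-epithelial scaling and 2.07 without adenoma 2.

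Ccn2 stood at 31.2, 78.98, 22.6, 23.8 and 30.03 CPM in adenomas 1 to 5, against 3.72, 5.80 and 4.36 CPM in WT 1 to 3. The groups were apart, and adenoma 2 stood far above the other adenomas. The log2 fold change was 3.01 ± 0.50 (adjusted p = 0.00138). Without adenoma 2 it was 2.53 (adjusted p = 6.68e-06). Ccn2 shares 23.2% of its exonic bases with the antisense gene Gm15270, which had 73 counts over all libraries, and the kit does not keep strand.

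Ankrd1 had 19, 33, 8, 9 and 18 counts in adenomas 1 to 5, against 0 counts in each WT library. That is 0.886, 1.55, 0.357, 0.389 and 0.609 CPM in adenoma, a low level in each. Against a floor of 3 counts over the WT group, which is 0.0537 CPM, the adenoma mean of 0.758 CPM was at least 14.1-fold higher. Ankrd1 passed the low-count filter through the adenomas alone, so its call had to come out higher and no p-value is given for it. The floor covers counting error only. The gene could not be fitted without adenoma 1, 2 or 5, nor with a filter of 5 CPM, since it then fell under the low-count filter.

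**Figure D3:**
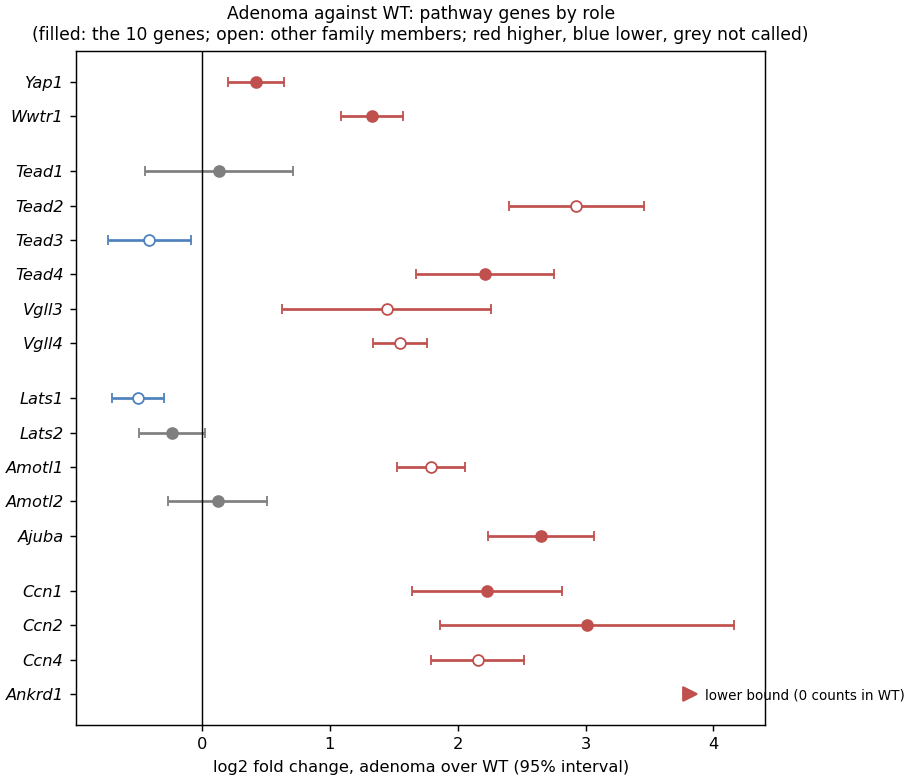
Log2 fold change of adenoma over WT (x axis, with 95% intervals from edgeR) for the pathway genes by role, with the 10 genes as filled points and other family members as open points. Red points were called higher, blue lower and grey not called, and the triangle gives the lower bound of Ankrd1 at 3.82. Ccn2, Ajuba, Ccn1 and Tead4 lie at 2.21 or above, while Tead1, Lats2 and Amotl2 have intervals that include 0.

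Other CCN genes were read beside Ccn1 and Ccn2. Ccn4, known as a Wnt-induced gene, was at 19.8 ± 2.45 CPM in adenoma and 4.43 ± 0.759 CPM in WT (log2 fold change 2.16 ± 0.16, adjusted p = 2.80e-05). Ccn5 was at 5.56 ± 3.58 CPM in adenoma and 0.154 ± 0.221 CPM in WT, on 50 to 245 counts per adenoma and on 8, 1 and 0 counts in WT 1 to 3. Ccn5 thus passed the low-count filter through the adenomas alone, so that no fold change or test is given for it. Ccn3 was at 58.9 CPM in adenoma 2 and 0.760 to 1.49 CPM in the other adenomas, against 1.73 to 2.90 CPM in WT.

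Ccn3 was not called over all libraries (log2 fold change 2.45 ± 1.79, adjusted p = 0.269), and without adenoma 2 it was called lower at -1.23 (adjusted p = 0.00509). Ccn6 had at most 5 counts in an adenoma library and 9 in a WT library, and it was not tested.

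A published pan-cancer signature of 22 YAP and TAZ targets holds 5 of the 10 genes. Of its other 17 genes, 9 were called higher (52.9%), 5 lower (29.4%) and 3 were not called, against 30.3% higher and 27.8% lower over all genes tested. The 9 include Fjx1, which had 12, 7 and 15 counts in WT 1 to 3. It passed the low-count filter only with the adenomas, so its call is not support. The median log2 fold change of the 17 genes was 0.79, and 0.27 with pan-epithelial scaling, where the median of all genes was -0.50. Under that scaling 1 of the 17 was called higher and 5 lower, and with the sex pattern in the fit 4 were higher and 4 lower. The 4 smallest adjusted p values among these 17 belonged to genes that fell.

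Nuak2, a kinase of the AMPK family that feeds back on LATS, was at 21.95 ± 1.71 CPM in adenoma and 76.8 ± 4.48 CPM in WT (log2 fold change -1.81 ± 0.09, adjusted p = 7.03e-06). Dock5, an activator of the GTPase Rac, was at 103 ± 7.46 CPM in adenoma and 204 ± 2.39 CPM in WT (-0.99 ± 0.09, adjusted p = 5.05e-05). Asap1, a regulator of Arf GTPases, was at 13.9 ± 1.98 CPM in adenoma and 29.99 ± 3.39 CPM in WT (-1.11 ± 0.14, adjusted p = 2.46e-04). Gadd45a, a stress-response gene, was at 13.7 ± 1.47 CPM in adenoma and 24.3 ± 2.03 CPM in WT (-0.83 ± 0.11, adjusted p = 4.24e-04), and it shares 19.1% of its exonic bases with an antisense gene.

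Among the higher genes of the signature, F3, Igfbp3 and Myof were picked after their values were seen. F3, which encodes tissue factor, was at 55.1 ± 20.95 CPM in adenoma and 10.2 ± 1.45 CPM in WT (log2 fold change 2.43 ± 0.33, adjusted p = 4.77e-04). Igfbp3 was at 100.3 ± 11.5 CPM in adenoma and 57.9 ± 3.43 CPM in WT (0.79 ± 0.11, adjusted p = 4.25e-04). Myof, a membrane-repair protein, was at 95.5 ± 23.5 CPM in adenoma and 47.3 ± 6.14 CPM in WT (1.01 ± 0.20, adjusted p = 0.00243). The calls of Igfbp3 and Myof were lost with pan-epithelial scaling (adjusted p = 0.414 and 0.251).

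AP-1 factors bind DNA beside TEAD at many YAP-driven enhancers. Of the 9 subunit genes read, 7 were called higher, 0 lower and 2 were not called, with a median log2 fold change of 0.85, against 30.3% higher and 27.8% lower over all genes tested. The 7 include Fosb, which had 20, 8 and 22 counts in WT 1 to 3. It passed the low-count filter only with the adenomas, so its call is not support. The count of 7 became 4 without WT 2 or with a filter of 5 CPM, 2 with the sex pattern in the fit and 1 with pan-epithelial scaling. Jun was at 164 ± 25.96 CPM in adenoma and 56.1 ± 10.8 CPM in WT (log2 fold change 1.55 ± 0.17, adjusted p = 1.63e-04). Junb was at 156 ± 21.1 CPM in adenoma and 86.2 ± 11.4 CPM in WT (0.85 ± 0.14, adjusted p = 0.00113), Jund at 123 ± 5.16 CPM in adenoma and 86.9 ± 6.35 CPM in WT (0.50 ± 0.08, adjusted p = 0.00103), and Atf3 at 21.1 ± 6.64 CPM in adenoma and 9.53 ± 2.34 CPM in WT (1.14 ± 0.28, adjusted p = 0.00791). With pan-epithelial scaling Junb and Atf3 were no longer called (adjusted p = 0.269 and 0.196) and Jund turned to -0.029 (adjusted p = 0.927). Junb and Atf3 were also not called with the sex pattern in the fit (adjusted p = 0.0595 and 0.315). On the opposite strand Gm11175, which had 0 counts, overlaps 52.6% of the exonic bases of Jund, the protein-coding gene Prdx2, with 27026 counts over all libraries, overlaps 7.52% of Junb, and Junos, with 353 counts, overlaps 7.28% of Jun. Fosl1, among the 7 called higher on 14 to 77 counts per library, shares 57.2% of its exonic bases with Ccdc85b. This protein-coding gene on the opposite strand had 1504 counts over all libraries. Without strand, reads of such partners cannot be told apart where they overlap.

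Compared per kilobase of exon, the order of the 10 genes differed between the groups. In adenoma Ccn1 (14.3 ± 3.49 CPM per kilobase), Ccn2 (13.05 ± 8.24), Ajuba (12.5 ± 1.204), Yap1 (12.015 ± 0.597) and Wwtr1 (11.4 ± 0.852) were the highest, and the library ranges of neighbours in that order overlapped. Amotl2 (5.92 ± 1.29) and Lats2 (4.81 ± 0.170) followed, apart from Wwtr1 but not from each other, and Tead1 lay apart from Lats2 and overlapped Tead4. Tead1 was at 2.61 ± 0.718 CPM per kilobase, Tead4 at 1.62 ± 0.227 and Ankrd1, apart from Tead4, at 0.263 ± 0.170.

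In WT Yap1 was the highest of the set at 8.96 ± 1.10 CPM per kilobase, apart from the next gene. Lats2 (5.67 ± 1.02), Amotl2 (5.43 ± 0.617) and Wwtr1 (4.52 ± 0.488) followed, with Ccn1 (3.06 ± 0.948), Tead1 (2.38 ± 0.665), Ajuba (1.98 ± 0.496) and Ccn2 (1.62 ± 0.372) after them, and each of these genes overlapped its neighbours in library range. Tead4 (0.350 ± 0.100), apart from Ccn2, was the lowest gene with counts. Ccn2 thus ranked 2 in adenoma and 8 in WT, and Ajuba ranked 3 in adenoma and 7 in WT. The rank of Ccn2 in adenoma rests on adenoma 2, at 27.6 CPM per kilobase. In adenomas 1, 3, 4 and 5 Ccn2 was at 10.9, 7.90, 8.31 and 10.5 CPM per kilobase, below Ajuba and Yap1 in each.

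**Figure D4:**
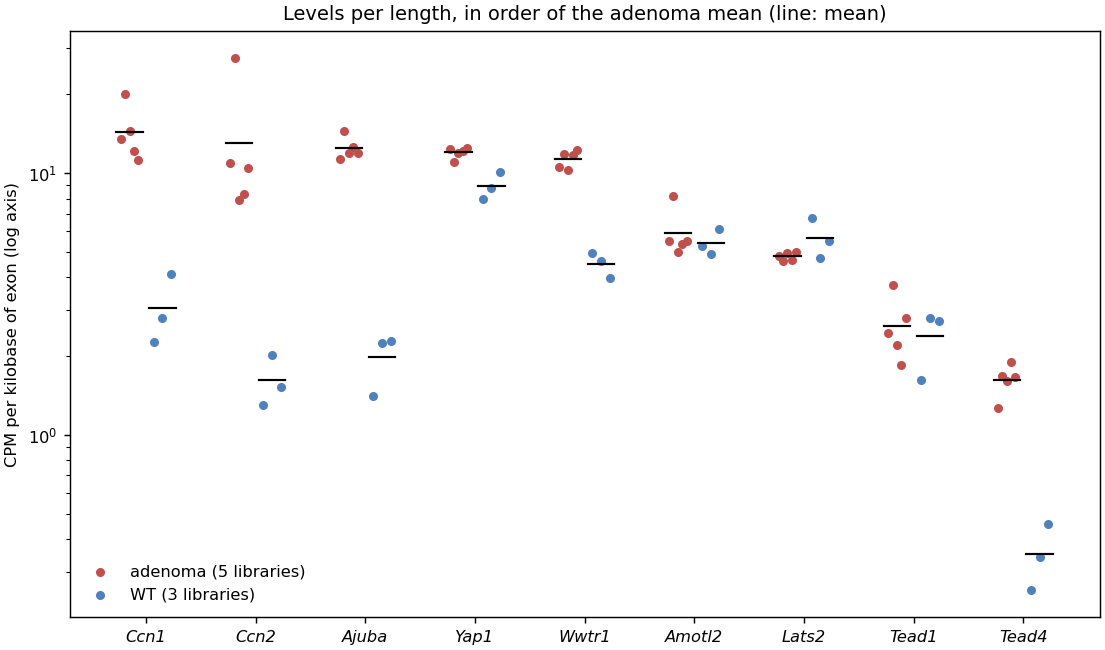
CPM per kilobase of exon (y axis, log scale) of 9 genes in each adenoma (red) and WT (blue) library, with the mean as a line, ordered by the adenoma mean. Ankrd1 is left out because its WT values are 0. The 5 genes at the left reach 11.4 to 14.3 on average in adenoma, while in WT only the mean of Yap1 exceeds 8. The place of Ccn2 in the order rests on adenoma 2, at 27.6, against 7.90 to 10.9 in the other adenomas.

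The adenomas were not alike in these genes. Adenoma 2 had the highest level of 6 of the 10 genes, namely Tead1, Ccn1, Ccn2, Ankrd1, Amotl2 and Ajuba, and the lowest of Yap1 and Lats2. Adenoma 3 had the lowest level of 4 genes, Wwtr1, Ccn2, Ankrd1 and Amotl2. The coefficient of variation over the adenomas was 63.2% for Ccn2, 64.7% for Ankrd1, 24.4% for Ccn1, 4.97% for Yap1 and 7.504% for Wwtr1. Without adenoma 2, left out after the data were seen, it was 16.1% for Ccn2 and 11.1% for Ccn1, and 43.5% for Ankrd1, whose values rest on 8 to 33 counts.

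Markers of other cell types moved with the groups and with adenoma 2. The counts of called markers below stand beside 30.3% higher and 27.8% lower over all genes tested. Of 8 fibroblast markers 5 were called higher and 0 lower, and their summed level was 2848 to 3690 CPM in adenoma, against 1368 to 1803 CPM in WT, with the highest value in adenoma 2. Col1a1, a defining one, was at 446 ± 73.3 CPM in adenoma and 133 ± 44.7 CPM in WT. The 3 not called were Lum, Dpt and Col6a3, named after their values were seen. The means of Dpt (17.4 CPM in adenoma, 30.3 CPM in WT) and Col6a3 (196 and 285 CPM) were lower in adenoma. Dcn, at 228 CPM, and Lum, at 13.5 CPM, were lower in adenoma 2 than in the other adenomas, so the markers did not move as 1. Of 8 endothelial markers 6 were called higher and 0 lower, with sums of 288 to 352 CPM in adenoma and 176 to 199 CPM in WT, and Pecam1 at 53.6 ± 2.45 CPM in adenoma and 42.6 ± 4.64 CPM in WT.

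Of 8 smooth muscle markers 4 were called lower and 0 higher, with sums of 428 to 1066 CPM in adenoma, highest in adenoma 2, and 956 to 1727 CPM in WT. Myh11 was at 201 ± 78.3 CPM in adenoma and 633 ± 186 CPM in WT, and Acta2, at 177 ± 58.8 CPM in adenoma and 233 ± 59.2 CPM in WT, was not called (adjusted p = 0.239). Of 6 pericyte markers 2 were called higher (33.3%) and 1 lower (16.7%), with sums of 336 to 371 CPM in adenoma and 262 to 343 CPM in WT.

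Of 8 leukocyte markers 1 was called higher and 4 lower, with sums of 211 to 547 CPM in adenoma and 323 to 478 CPM in WT. The 1 called higher, S100a8, is named after its values were seen. S100a8 had 9, 2 and 0 counts in WT 1 to 3, so it passed the low-count filter through the adenomas alone. Ptprc was at 45.8 ± 8.13 CPM in adenoma and 128 ± 39.2 CPM in WT. Of 8 pan-epithelial markers 5 were called higher and 0 lower, with sums of 5446 CPM in adenoma 2 and 7614 to 9850 CPM in the other adenomas, against 5293 to 5764 CPM in WT. None of the 64 markers read was at 0 in every library of a group. Mesothelial sums were 14.6 to 38.4 CPM in adenoma and 6.47 to 23.9 CPM in WT. Their rise came from Msln, at 21.0 CPM on average in adenoma and 4.36 CPM in WT. The means of the other mesothelial markers, Upk3b, Lrrn4, Wt1 and Upk1b, were lower in adenoma. The median log2 fold change of the 3 mesothelial markers tested was -0.92. Enteric neural sums were 4.63 to 9.24 CPM in adenoma and 11.1 to 14.2 CPM in WT. Yap1, Wwtr1, Ccn1 and Ccn2 are made by stromal as well as epithelial cells, the part of these cell types in the differences was not tested, and in whole tissue fewer cells of a type and less RNA per cell cannot be told apart.

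**Figure D5:**
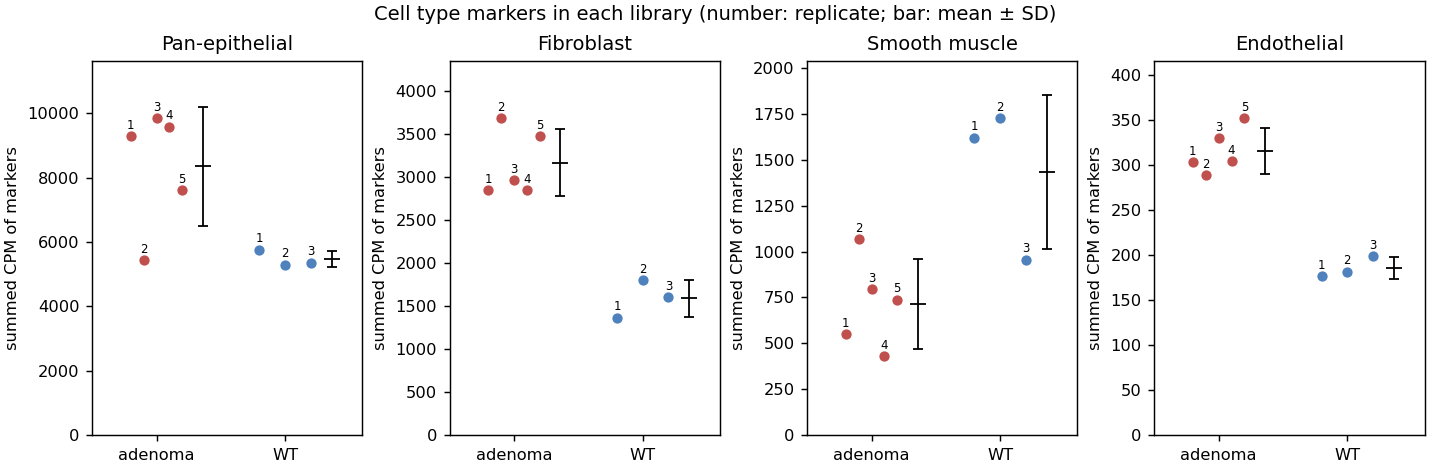
Summed CPM of 8 pan-epithelial, 8 fibroblast, 8 smooth muscle and 8 endothelial marker genes (y axes, linear from 0) in each adenoma (red) and WT (blue) library, with replicate numbers and mean ± SD. Fibroblast and endothelial sums are higher in every adenoma than in every WT library, and adenoma 2 has the lowest epithelial sum and the highest fibroblast and smooth muscle sums of the adenomas.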

How the data were processed

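RNA of whole tissue was sequenced in 8 mouse libraries, 5 of adenoma and 3 of WT small intestine. Extraction used Qiagen RNeasy, and TruSeq RNA libraries, unstranded, were read as paired ends on a NextSeq, per the labels' protocols. The authors deposited raw counts per Ensembl gene. TopHat2, HTSeq and FastQC are the tools, and GRCm38 the build, named per the submitters' processing notes. Their versions, the annotation and the strand setting: not given in the sources used here.

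Symbols, positions and exon lengths came from GENCODE M21, also on GRCm38, and 37607 of 39179 identifiers had a symbol. The count test was edgeR 4.0.16 (R 4.3.3), with filterByExpr (18345 genes kept), TMM scaling and robust quasi-likelihood fits. Levels per kilobase divide CPM by merged exon length. Alternatives were other scalings, filters, DESeq2 1.42.0, limma-voom (limma 3.58.1), a replicate block, the sex pattern as a covariate and leaving out libraries. The fit was tested on simulated data. The 10 genes and all gene lists were chosen with earlier results of these data known. Named genes are the 10, their families and, per list, up to 4 others of lowest adjusted p and the leading gene of the rarer direction; F3, Igfbp3 and Myof are extra. The single-gene result of 1 junction gene is not reported here, and the gene stays in the list counts. Library pairs within a group differed beyond sampling noise (chi-square per degree of freedom 20.1 to 149), and each was counted as 1 replicate. Pieces of the same mouse could differ in this way too, so the check does not show separate mice.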

Additional observations from a re-analysis of the deposited data

Results flagged for a closer look

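Of 58 values examined over the 5 adenomas, 9 had 1 library set apart from the other 4 by a gap that is large for the group's range, where chance alone flags about 1 in 20. Of these, 6 were in adenoma 2. Among the 10 genes, Ccn2 reached 78.98 CPM in adenoma 2 and lay between 22.6 and 31.2 CPM in the other adenomas, and Amotl2 reached 51.5 CPM there and 31.3 to 34.7 CPM elsewhere. Vgll3, a TEAD cofactor gene, had 4.32 CPM in adenoma 2 and 1.70 to 2.33 CPM in the others. Ccn3 had 58.9 CPM in adenoma 2 and 0.760 to 1.49 CPM in the others. Patj was lower there, at 116 CPM against 137 to 144 CPM. Leukocyte markers summed to 547 CPM in adenoma 2 and to between 211 and 302 CPM in the other adenomas. Lyz2 and Csf1r are named here after their values were seen. Lyz2 alone was at 345 CPM in adenoma 2 and 90.7 to 144 CPM in the others, and Csf1r at 80.5 CPM against 47.5 to 62.1 CPM. Ptprc, at 51.9 CPM in adenoma 2, lay within the 36.3 to 56.0 CPM of the others.

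In adenoma 3, Tead2 made up 47.9% of the TEAD family per kilobase, against 53.6% to 55.8% in the other adenomas, and Tead3 made up 22.7%, against 16.2% to 17.3%. Pancreatic acinar markers summed to 511 CPM in adenoma 5 and 0.735 to 3.90 CPM in the other adenomas.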

How the results depend on the processing

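Of the 10 genes, Wwtr1, Tead4, Ccn1, Ccn2 and Ajuba were called higher as reported and under all 20 alternatives. Scaling to pan-epithelial genes turned Yap1 to -0.14, Mob1a to -0.11, Fosl2 to -0.20 and Jund to -0.029 on the log2 scale, left 1259 genes called higher in all and 8 of the other pathway genes higher, against 5558 and 31 as reported. Of the 10 genes, Lats2 was called lower (1, against 0) with that scaling, with upper-quartile scaling and with a filter of 5 CPM. With sex pattern added to the fit, which then rests on adenoma 1, 3074 genes were higher and 2298 lower, and of the other pathway genes 16 were higher and 10 lower, against 16 lower as reported. The replicate numbers do not pair the libraries (correlations of same-numbered libraries -0.02, 0.05 and 0.06); with the replicate block 3345 genes were higher and 3204 lower, 3 of 9 AP-1 genes were higher, and the Yap1 call was lost (log2 fold change 0.40, adjusted p = 0.0813). Without adenoma 2 Ccn3 turned to -1.23, and with any other library left out it reached up to 2.75. Without WT 1 and adenoma 5 together no exact test could pass, since 15 splits allow no p below 0.0667, and the differences were 1.04 for the log2 ratio of Wwtr1 to Yap1 and -18.6, 40.9, -28.4 and 6.07 percentage points for the shares of Tead1 to Tead4. With 1 library left out, 0 to 1 of the 10 genes were called lower, the log2 ratio of Lats2 to Lats1 differed by 0.15 to 0.48, and the Tead4 share by 5.63 to 7.09 points, with exact p up to 0.0571. The causes of these shifts were not tested. Counts limit Ankrd1, with 8 to 33 per adenoma, and Tead4, with 18 to 30 per WT library.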
